A study of Rattus norvegicus with 8 samples.

Results

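The hypothalamus methylome described here is the set of cytosines that all 4 hypothalamus libraries of a rat reduced representation bisulfite sequencing (RRBS) series list on chromosomes 1 to 20, whether or not the hippocampus libraries list them. It holds 6269244 cytosines, 48.9% of the 12828246 that the 8 libraries of the series list between them. Of these, 840504 lie in CpG context and form 764117 CpG dyads, a dyad being the C at one position and the G at the next with the calls of its listed strands added. The other cytosines lie in CHG (1488474) and CHH (3940264) context, where H is A, C or T, and 2 have no defined context.

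The 4 libraries came from the hypothalamus of male Sprague Dawley rats, an outbred strain, that were 2 months old at the start and were fed DHA, the omega-3 fatty acid docosahexaenoic acid, for 6 weeks. All 4 shared this diet, and the chow-fed animals of the study were not analysed here. The protocol text speaks of fructose and DHA feeding across the whole study, while these samples are marked with DHA alone. No animal is named in the labels, so the spread between replicates is that between 4 libraries, and each library is DNA from bulk tissue, in which a middle level in every cell and a mixture of methylated and unmethylated cells cannot be told apart. Calls at cytosines carry no gene names here, so the tissue label was not checked against marker genes.

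In mammals, cytosine methylation sits mainly at CpG, where it is copied to the new strand after replication by DNMT1 and can be oxidised by TET enzymes. Most CpGs of the genome are methylated. CpG islands, short stretches dense in CpG that often hold promoters, are mostly free of it. Neurons also carry methylation outside CpG, above all at CA, which DNMT3A places after birth. RRBS cuts DNA with MspI, whose site contains a CpG, and so reads mostly CpG-rich ends of fragments.

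The libraries were not equally deep. Over all listed cytosines, hypothalamus 1 and 2 held 467623585 and 572801479 calls, hypothalamus 3 held 178178404 and hypothalamus 4 held 259930295. Per dyad the median was 55, 68, 22 and 33 calls in hypothalamus 1 to 4. Both strands were listed for 76387 dyads and 1 strand for 687730, so most dyad levels rest on the calls of 1 strand. Hypothalamus 3, with the fewest calls and the shortest list of positions (8239471), gave the least precise levels.

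The dyads fell mostly into an unmethylated and a methylated group. Of the 764117 dyads, 284977 (37.3%) had a mean level under 20%, 306575 (40.1%) a mean level over 80% and 172565 (22.6%) a level between. In 270826 dyads (35.4%) all 4 libraries were under 20%, in 235834 (30.9%) all 4 were over 80%, and in 103663 (13.6%) all 4 lay from 20% to 80%. Each dyad counting once, the level was 50.7%, 49.7%, 50.02% and 52.1% in hypothalamus 1 to 4, a mean of 50.6% ± 1.07 (SD, n = 4). Hypothalamus 4 was the highest and hypothalamus 2 the lowest.

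CpG density was measured as the number of other member dyads within 100 bases on either side. Because only listed dyads were counted, it is a lower limit on the CpGs in the sequence. In 6 classes set by position alone, the mean level fell at every step, from 77.7% ± 1.96 (SD, n = 4) at 47588 dyads with no neighbour to 2.24% ± 0.417 at 70797 dyads with 15 or more. The order of the classes was the same in each of the 4 libraries. Dyads with 1 to 2 neighbours had a level of 73.9% ± 1.49, those with 3 to 5 neighbours 64.4% ± 1.16, those with 6 to 9 neighbours 35.4% ± 0.769 and those with 10 to 14 neighbours 8.89% ± 0.510 (SD, n = 4 each).

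The contrast between the sparsest and the densest class was many times the spread between replicates. The sparsest class stood at 77.4%, 76.4%, 76.5% and 80.6% in hypothalamus 1 to 4, and the densest at 2.62%, 1.83%, 1.94% and 2.59%. The sets of values do not overlap. Their difference was 74.8, 74.5, 74.6 and 78.0 points, a mean of 75.5 ± 1.68 (SD, n = 4), in the same direction in 4 of 4 libraries. In a two-sided exact sign-flip permutation test, 2 of the 16 sign assignments gave a mean as large, the fewest that 4 libraries allow, so this test cannot reach 0.05 with them.

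**Figure D1:**
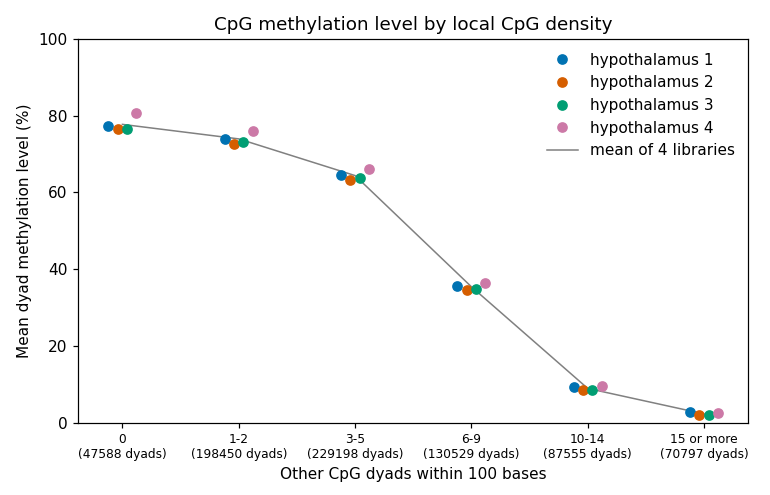
Mean methylation level of dyads (y axis, %) in 6 classes of the number of other dyads within 100 bases (x axis, with the dyads in each), one point per library and a line for the mean of the 4. The level falls from 77.7% to 2.24%, and the 4 libraries lie close together in every class.

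The steepest part of the fall lay between 4 and 10 neighbours. Dyads with exactly 4 neighbours had a mean level of 64.1%, those with 6 had 47.6%, those with 8 had 27.6% and those with 10 had 13.95%. From 20 neighbours upward the mean stayed between 1.16% and 1.66%. Along this fall dyads were mostly either low or high. In the class of 6 to 9 neighbours, 56.9% of dyads were under 20%, 27.9% were over 80% and 15.1% lay between, with quartiles at 0.848% and 84.8%. Middle levels were most frequent where CpGs were sparse, at 33.1% of dyads with no neighbour and 33.5% of those with 1 to 2, against 1.57% of those with 15 or more.

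**Figure D2:**
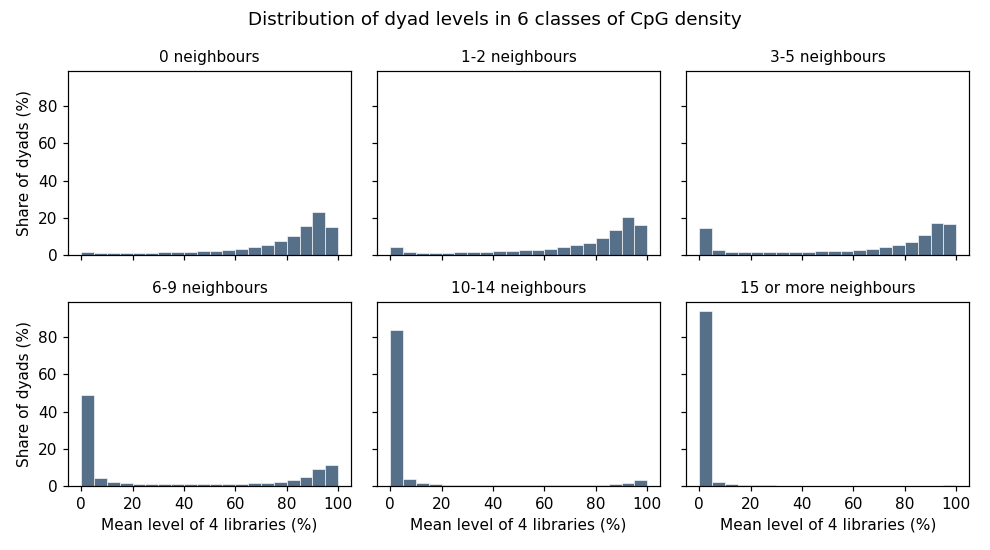
Share of dyads (y axis, %) by the mean level of the 4 libraries (x axis, %, bins of 5 points), one panel per class of neighbouring dyads. Sparse classes have most dyads near the upper end with a broad shoulder of middle levels, the class of 6 to 9 neighbours has an upper and a lower peak, and the densest class has 94.4% of its dyads in the lowest bin.

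Exceptions to the density rule were present at both ends. Among dyads with 0 to 2 neighbours, 13161 were under 20% in all 4 libraries, and they lay in 7676 tiles of 1000 bases. Of these sparse unmethylated dyads, 19.2% lay within 2000 bases of a dyad of the densest class, against 0.497% of the 109449 sparse dyads that were over 80% in all 4 libraries. Most of the unmethylated ones (72.7%) lay more than 10000 bases from any densest-class dyad, against 95.3% of the methylated ones. Of dyads with 10 or more neighbours that were under 20% in all 4 libraries, 20.2% also lay that far from the class. Distance from the densest class therefore does not show that a dyad lay far from all dense sequence. Among dyads with 10 or more neighbours, 4676 were over 80% in all 4 libraries, in 937 tiles, against 145880 under 20% in 9804 tiles. The methylated dense dyads were somewhat shallower, with medians of 48, 62, 20 and 30 calls in hypothalamus 1 to 4 against 60, 83, 22 and 36 for the unmethylated ones.

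The level also depended on how near CpG-dense sequence was. Outside the densest class, dyads within 250 bases of a densest-class dyad had a mean level of 4.43% ± 0.525 (SD, n = 4). The level was 10.7% ± 0.907 at 501 to 1000 bases, 26.3% ± 1.22 at 1001 to 2000 bases, 45.8% ± 1.22 at 2001 to 4000 bases and 63.8% ± 1.22 beyond 10000 bases. Dyads near a dense stretch are themselves dense, so the profile was repeated for those with 0 to 5 neighbours. It rose in the same order, from 6.61% ± 0.795 within 250 bases to 38.4% ± 1.64 at 1001 to 2000 bases and 72.4% ± 1.38 beyond 10000 bases (SD, n = 4 each). In this set the mean number of neighbours still fell along the profile, from 3.93 to 2.45, so density was matched in part only.

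**Figure D3:**
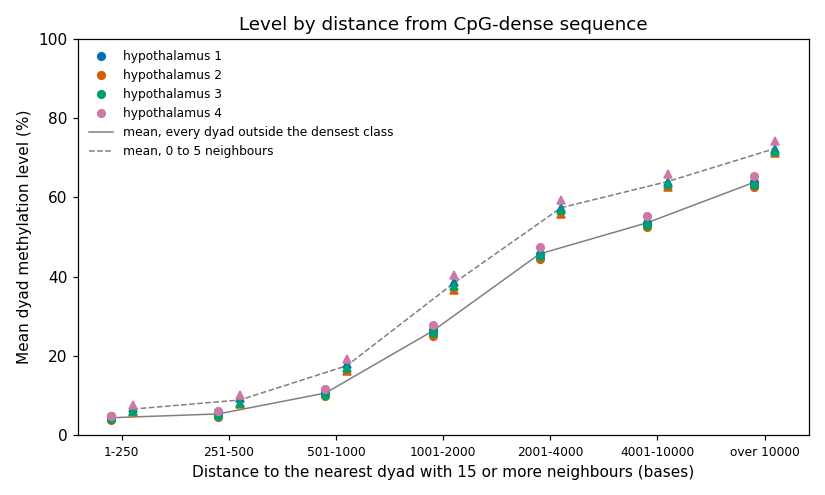
Mean methylation level of dyads (y axis, %) by distance in bases to the nearest dyad with 15 or more neighbours (x axis, bins), for every dyad outside the densest class (circles, solid mean) and for those with 0 to 5 neighbours (triangles, dashed mean), one point per library in the same 4 colours. Both profiles rise with distance in all 4 libraries, to 63.8% and 72.4% beyond 10000 bases.

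Neighbouring dyads had similar levels. The correlation of mean levels between adjacent listed dyads was 0.977 at a distance of 2 to 10 bases (214842 pairs), 0.869 at 51 to 100 bases (88073 pairs), 0.835 above 100 and up to 200 bases (44597 pairs), 0.871 at 201 to 500 bases (12633 pairs) and 0.222 at 1001 to 5000 bases (32858 pairs). These are descriptions over pairs that share libraries and often reads. Adjacent dyads differed by more than 50 points in 0.575% of the closest pairs and in 21.9% of pairs 1001 to 5000 bases apart. Dyads of 1 stretch are therefore not independent of each other.

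Single regions show the landscape in detail. They are tiles of 1000 bases with at least 3 dyads and 50 calls in every library, of which there were 86437, and coordinates are as deposited, in build rn5 per the submitters' processing notes. No annotation of that build was used, so no gene or exon is named for them. The tile with the most dyads, at 144476001 to 144477000 on chromosome 6, holds 97. Its level was 3.002%, 1.87%, 2.89% and 2.55% in hypothalamus 1 to 4 (2598 to 8093 calls per library). The next were the tile at 65441001 to 65442000 on chromosome 19 with 91 dyads and a level of 0.617% ± 0.326, and the tile at 165502001 to 165503000 on chromosome 3 with 90 dyads and 0.458% ± 0.370 (SD, n = 4 each). The densest tiles were thus almost free of methylation in every library.

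Dense but methylated tiles were rare. Of 5240 tiles with 20 or more dyads, 140 were at 80% or more in every library. The densest of these, at 18194001 to 18195000 on chromosome 12, holds 45 dyads and stood at 96.0%, 95.8%, 95.3% and 96.4% in hypothalamus 1 to 4 (773 to 1778 calls). The tile at 25867001 to 25868000 on chromosome 15 has 39 dyads and a level of 84.9% ± 2.65, and the tile at 11481001 to 11482000 on chromosome 7 has 38 dyads and 92.8% ± 0.769 (SD, n = 4 each). In the chromosome 12 tile the libraries differed by 1.09 points, while in the chromosome 15 tile hypothalamus 1 and 4 stood at 86.5% and 87.8% and hypothalamus 2 and 3 at 82.4% and 82.9%.

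Between chromosomes the mean level over dyads ranged from 44.9% ± 1.12 on chromosome 10 to 57.2% ± 1.09 on chromosome 13 (SD, n = 4 each). Chromosome 13 also had the lowest mean number of neighbours, 5.16, and chromosome 1 the highest, 6.37, with a level of 46.2%. Chromosome 10 had 6.25. On every autosome hypothalamus 4 was the highest of the 4 libraries.

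Nearly all of these positions were also listed in the other tissue of the series. Of the 6269244 cytosines, 6222735 were also listed in all 4 hippocampus libraries and only 6 in none of them. The 5276 dyads (0.690%) with a cytosine that some hippocampus library did not list had a hypothalamus level of 68.6% ± 1.02 (SD, n = 4), against 50.5% ± 1.07 for the rest. They were shallower, with a median of 35, 43.5, 17 and 21 calls in hypothalamus 1 to 4, and 2.92% of them lay in the densest class against 9.31% of the rest. Without these 5276 dyads the mean level was 50.5%, against 50.6% with them.

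Outside CpG the levels were low and also varied with CpG density. At CHH cytosines followed by A, the level by calls was 3.12%, 1.80%, 2.28% and 3.17% in hypothalamus 1 to 4, and at CHH cytosines followed by C it was 1.003%, 0.310%, 0.412% and 1.01%. In both contexts hypothalamus 1 and 4 were higher than 2 and 3. The level at CA fell with the number of dyads around the cytosine, from 2.91% ± 0.687 with 1 to 2 dyads to 0.726% ± 0.447 with 15 or more, while that at CC was 0.693% ± 0.375 and 0.609% ± 0.331 (SD, n = 4 each). CA exceeded CC by 2.43, 1.78, 2.15 and 2.50 points with 1 to 2 dyads, in 4 of 4 libraries. With 15 or more dyads the excess was 0.270, -0.0160, 0.0563 and 0.159 points, so it was no longer seen in hypothalamus 2.

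With each dyad counted once, the difference between libraries in the densest class moved with the CC level by calls. Hypothalamus 1 and 4 had CpG levels of 2.62% and 2.59% there and CC levels of 0.875% and 0.912%, whereas hypothalamus 2 and 3 had 1.83% and 1.94% at CpG and 0.282% and 0.365% at CC. This CpG level minus the CC level by calls was 1.74, 1.55, 1.57 and 1.68 points, with an SD of 0.0896 in place of 0.417. By calls, the CpG level there was 3.33%, 2.36%, 2.99% and 3.08% in hypothalamus 1 to 4. Hypothalamus 3 then stood close to hypothalamus 4, although its CC level was lower. The small SD was thus found with 2 unlike measures, and no subtraction with both levels by calls is given. In the mitochondrial DNA the CpG level was 1.46%, 0.312%, 0.561% and 1.63% in hypothalamus 1 to 4, with the same libraries high and low. These mitochondrial values are over the positions each library lists itself, which differ between libraries. In the sparsest class the subtraction left hypothalamus 4 at 79.6% and the other 3 at 76.0% to 76.3%. The part of unconverted calls in these differences was not tested.

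The spread between replicates was then compared with what counting alone gives. The median SD of a dyad over the 4 libraries was 3.55 points, below the median of 4.12 points that binomial counting gives, and the median range was 7.72 points. An SD from 4 values falls below the true SD more often than above it, so medians and root mean squares differ. The median SD was below counting at levels under 10% (1.23 against 1.44 points), at 80% to 90% (5.83 against 6.03) and over 90% (3.39 against 3.81), and above it at the levels between, with 9.24 against 8.44 points at 40% to 50%. Counting error is largest at middle levels, so dyads were also compared in steps of mean level with the SDs averaged as root mean squares, which give more weight to the dyads that vary most. Under a level of 10% the SD was 2.21 points, where binomial counting gives 2.00. At 40% to 50% it was 11.8 points against 8.79, and at 90% to 100% it was 4.24 against 4.09. By root mean squares the spread beyond counting was thus 7.85 points at 40% to 50%, 0.949 points under 10% and 1.14 points over 90%.

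**Figure D4:**
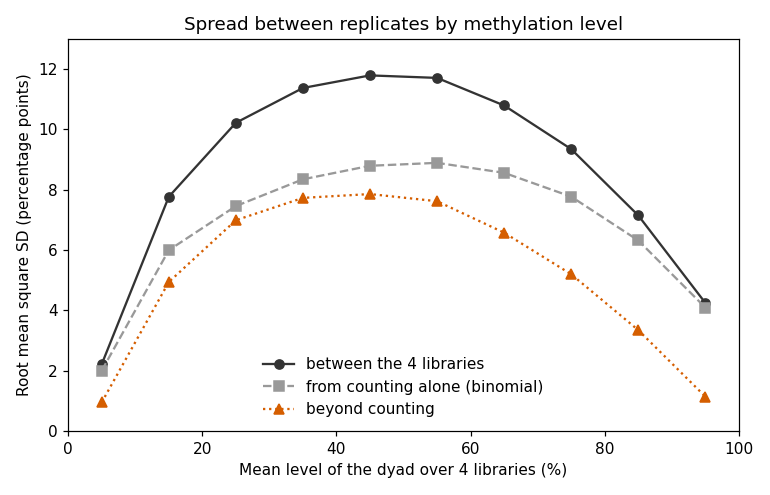
Root mean square SD of dyad levels (y axis, percentage points) by the mean level of the dyad (x axis, %, bins of 10 points): between the 4 libraries, from binomial counting alone, and the part beyond counting. All 3 are lowest at the ends, and the part beyond counting is largest at 40% to 50%, with 7.85 points.

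The spread was also taken by density class. Over all dyads of a class the part beyond counting was 4.06 points with no neighbour, 4.34 points with 1 to 2 neighbours and 1.06 points with 15 or more. Among dyads of middle level, from 20% to 80%, it was 6.18 points with no neighbour, 6.84 points with 3 to 5 neighbours and 6.08 points with 15 or more, although only 1113 dyads of the densest class had such a level. The band does not match the levels within it, since many of the dyads with no neighbour lay near its upper end and many of the densest class near its lower end. The differences between the classes were not tested.

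The libraries did not deviate equally. The mean deviation of a library from the mean of the other 3 was 1.96 points in hypothalamus 4, 0.107 points in hypothalamus 1, -0.796 points in hypothalamus 3 and -1.27 points in hypothalamus 2. At dyads of middle level it was 4.75, 0.242, -1.64 and -3.36 points in the same order. Hypothalamus 4 was the highest library at 41.9% of the middle dyads with a single highest library. Among those with a single lowest library, it was hypothalamus 2 at 33.3% and hypothalamus 3 at 31.8%. Over all dyads hypothalamus 3 was the lowest most often, at 32.6% against 28.3% for hypothalamus 2. The correlation of levels across dyads was 0.982 for hypothalamus 1 and 2, the deepest pair, and 0.970 for hypothalamus 3 and 4, the shallowest, with the other pairs between. Levels of at least 20 points apart were found at 2.85% of dyads in the first pair and 6.43% in the second.

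Single dyads that differed between the libraries were sought with a chi-square test on methylated and unmethylated calls, adjusted by the Benjamini-Hochberg method over all dyads tested. Tested were 266751 dyads with a pooled level of 10% to 90% and at least 2 expected calls in every cell. At an adjusted p under 0.05 and a range of at least 20 points, 8672 dyads (3.25%) were called, and 41404 (15.5%) had an unadjusted p under 0.05. The median statistic was 1.13 per degree of freedom, where counting alone gives 0.789. The test compares these 4 libraries, treats calls as independent, and takes neither sequence variants nor cell mixtures into account, whose part was not tested. Without hypothalamus 2 the count was 4330 (1.62% of dyads tested), and 3961 of those were among the 8672. Without 1 of the others it was 5865 to 8561 (2.10% to 3.02%), and 8561 was the count without hypothalamus 3, the shallowest library. Hypothalamus 2 is the deepest, so leaving it out also takes the most calls from the test. At a range of at least 40 points the count was 5012, and after every dyad was thinned to 10 calls per library it was 708 of 167478 tested.

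By density class, called dyads made up 2.33% of those tested with no neighbour, 3.09% with 1 to 2, 3.45% with 3 to 5, 3.71% with 6 to 9 and 3.41% with 10 to 14, beside the 3.25% over all. With 15 or more neighbours the share was the highest of the 6, 5.02%, from 94 of 1873 dyads, whose summed calls were also the highest, with a median of 198 against 181 with no neighbour. The median statistic per degree of freedom was the lowest of the 6 there, 1.12 against 1.15 with no neighbour. The differences in share were not tested, and the classes were not matched for level. By level, the share was 4.81% at 10% to 30% and 5.90% at 30% to 50%. It was 4.14% at 50% to 70% and 1.72% at 70% to 90%. Called dyads lay near each other. Of tested dyads next to a called one within 50 bases, 21.6% were called (756 of 3504), and of those next to an uncalled one 2.47% were (2761 of 111680). Dyads this close often share reads and had similar levels, so their calls are not independent. Hypothalamus 2 was farthest from the median of the 4 at 33.2% of the called dyads and the lowest at 41.8%, and hypothalamus 4 was the highest at 41.3%. In this test a deviation of the same size counts for more in a deeper library. Called dyads had a median of 69 calls in hypothalamus 2 and 25 in hypothalamus 3. Among the 4131 dyads with a range of at least 50 points, called or not, hypothalamus 2 was the single lowest at 28.5% and hypothalamus 3 at 31.7%. Hypothalamus 4 was the single highest there at 42.9%.

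The range was large at some of them. It was at least 50 points at 2966 called dyads and 100 points at 59, the largest value possible. The 3 named here come first in chromosome order among those 59. The dyad at 90011244 to 90011245 on chromosome 1 had levels of 28.6%, 0%, 81.8% and 100% in hypothalamus 1 to 4, from 21, 36, 11 and 12 calls. On chromosome 1 too, levels were 0%, 51.4%, 43.8% and 100% at 154940665 to 154940666 (16 to 72 calls) and 0%, 48.0%, 29.4% and 100% at 182609235 to 182609236 (17 to 60 calls). In all 3, hypothalamus 4 was at 100%. They were chosen for their range, so these values are a description.

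Few whole tiles varied so widely. The median range of a tile was 5.74 points, and 12 tiles had a range of at least 50 points. The widest was the tile at 34900001 to 34901000 on chromosome 11, with 4 dyads and levels of 21.6%, 17.9%, 18.3% and 76.9% in hypothalamus 1 to 4 (52 to 123 calls). Hypothalamus 4 alone stood apart there. In the tile at 193162001 to 193163000 on chromosome 1 the levels were 33.7%, 57.5%, 16.0% and 73.0%, and in the tile at 43764001 to 43765000 on chromosome 19 they were 74.2%, 34.1%, 90.9% and 51.2%, each library with a level of its own. These tiles hold 3 to 5 dyads and 50 to 345 calls per library, where the selection asked for at least 3 dyads and 50 calls.

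Weighting by calls lowered the CpG level in every library, most of all in hypothalamus 2. As methylated calls over all calls, the level was 48.1%, 44.8%, 48.9% and 49.9% in hypothalamus 1 to 4, a mean of 48.0% ± 2.22 (SD, n = 4), where the unweighted SD was 1.07. The weighted minus the unweighted level was -2.56, -4.85, -1.09 and -2.15 points, lower in 4 of 4 libraries (mean -2.66 ± 1.58, SD, n = 4; two-sided exact sign-flip permutation test, 2 of 16 assignments as large, the fewest possible). By calls, hypothalamus 2 was 3.32, 4.12 and 5.12 points below hypothalamus 1, 3 and 4. With each dyad counted once it was 1.03, 0.355 and 2.42 points below them.

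The calls of hypothalamus 2 moved the level, whichever library the levels came from. Each library's dyad levels were averaged with the calls of each library as weights. With the calls of hypothalamus 2, the levels of hypothalamus 1, 2, 3 and 4 changed by -4.98, -4.85, -5.03 and -5.24 points from their unweighted means. With the calls of hypothalamus 3, the same levels changed by -1.09, -1.06, -1.09 and -1.23 points. The levels of hypothalamus 2 under the calls of hypothalamus 1, 3 and 4 gave 47.1%, 48.6% and 47.7%. The amount of the shift thus followed the library that gave the calls and hardly the library that gave the levels.

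In hypothalamus 2 the level fell with depth, except at the very deepest dyads. In the decile of dyads with the fewest calls in hypothalamus 2 (10 to 35), its mean level was 69.5%, and in the decile with the most (124 and above) it was 34.7%. In the deepest decile 56.6% of dyads were under 20%, against 12.9% in the shallowest. The other 3 libraries had mean levels of 71.8% and 35.5% at these same dyads. The corresponding levels were 59.7% and 40.7% in hypothalamus 1, 51.9% and 44.7% in hypothalamus 3, and 58.1% and 43.2% in hypothalamus 4, each by its own calls. The deepest decile held mostly dyads with both strands listed in hypothalamus 1, 2 and 4 (74.8%, 74.3% and 81.9%) and 49.8% such dyads in hypothalamus 3. Among dyads with 1 strand listed, the levels of the shallowest and deepest decile were 59.9% and 47.2% in hypothalamus 1, 69.8% and 33.9% in hypothalamus 2, 51.9% and 48.3% in hypothalamus 3, and 58.2% and 50.9% in hypothalamus 4. In this set the fall was smaller in hypothalamus 1, 3 and 4 and remained in hypothalamus 2. At dyads where the other 3 libraries averaged under 10%, hypothalamus 2 had 1.17 times its mean calls and 40.2% of its calls in 34.5% of the dyads. The same ratio was 1.005 in hypothalamus 3, 1.07 in hypothalamus 1 and 1.05 in hypothalamus 4.

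**Figure D5:**
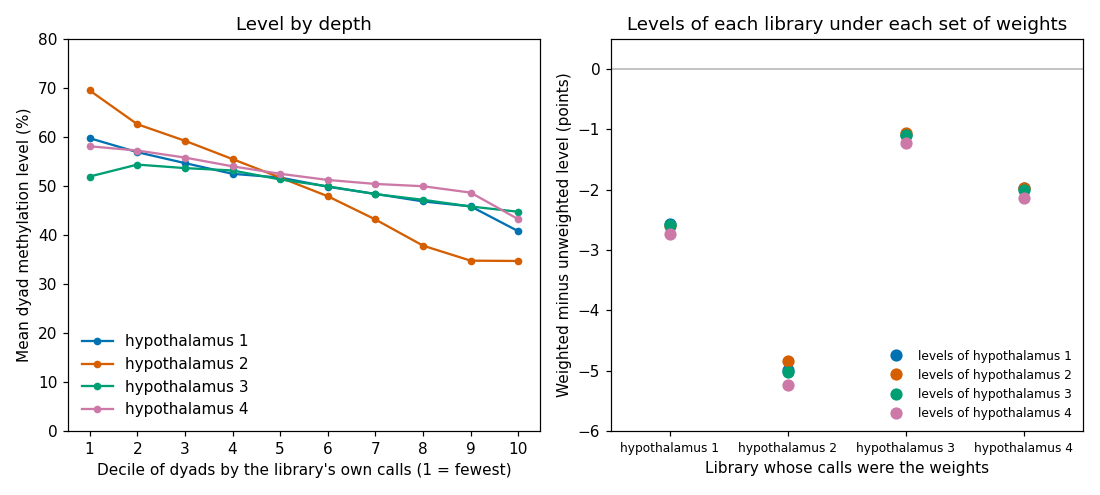
Left, mean dyad level (y axis, %) by decile of dyads ordered by the library's own calls (x axis). Right, weighted minus unweighted level (y axis, points) for the levels of each library (colours) under the calls of each library (x axis). The left slope is steepest in hypothalamus 2, from 69.5% to 34.7%, and on the right all 4 points at the calls of hypothalamus 2 lie between -4.85 and -5.24 points.

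Most of the shift lay between the density classes. Dyads with 15 or more neighbours had 1.27 times the mean calls of the library in hypothalamus 2, against 1.12, 1.04 and 1.20 times in hypothalamus 1, 3 and 4. Dyads with no neighbour had 0.848 times the mean in hypothalamus 2. The unequal shares of calls between the 6 density classes made -3.54 of the -4.85 points (73.1%), and the other -1.31 points arose within classes. Within the class of 6 to 9 neighbours, the level by calls was 32.2% in hypothalamus 2 against 34.7% unweighted. The between-class part was -1.85, -0.542 and -2.47 points in hypothalamus 1, 3 and 4. With classes of density and of strands listed together it was -3.10 points in hypothalamus 2 (63.8%) and -1.30, -0.191 and -1.87 points in hypothalamus 1, 3 and 4.

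A dyad with both strands listed collects more calls, which also touches the weights. Such dyads were denser, with a mean of 9.11 neighbours against 5.54, and less methylated, at 39.3% against 50.8% unweighted in hypothalamus 2. Among dyads with 1 strand listed, the weighted minus the unweighted level was -1.25, -3.62, -0.437 and -0.716 points in hypothalamus 1 to 4, and among those with both strands -1.36, -3.91, 0.471 and -0.830 points. Hypothalamus 2 had the largest shift in both sets. In hypothalamus 3 the sign turned among dyads with both strands listed.

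In the counts as deposited, a few very deep regions did not carry the shift. The 764 deepest dyads in hypothalamus 2 (0.1%), with 857 calls or more, had an unweighted level of 56.2%, above the library's 49.7%. They held 2.76% of the calls, and their part in the difference was 0.145 points in the opposite direction. The 76412 deepest (10%) held 24.9% of the calls and gave -1.52 points. The highest count at any listed cytosine was 8009, 8019, 8005 and 7970 in hypothalamus 1 to 4, close together although depth differed. A ceiling on the deposited counts was not tested, so the weights of the deepest dyads may be too low. The tile with the largest part in the difference, at 67048001 to 67049000 on chromosome 19, has 49 dyads and 118697 to 192623 calls per library, and made -0.0710 points of the -4.85. Its level was 15.001%, 27.1%, 21.9% and 13.6% in hypothalamus 1 to 4, so hypothalamus 2 was the highest there. The tile at 46822001 to 46823000 on chromosome 14 gave -0.0380 points and the tile at 95679001 to 95680000 on chromosome 13 gave -0.0359 points, with levels of 26.1% ± 3.81 and 2.88% ± 0.475 (SD, n = 4 each).

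By chromosome, the shift in hypothalamus 2 was negative on all 20 autosomes, from -3.38 points on chromosome 2 to -7.17 points on chromosome 19. Without the chromosome 19 tile named above, which held 8.61% of that chromosome's calls in hypothalamus 2, the shift there was -5.65 points. Without the 1% of dyads with the most summed calls it was -4.64 points (chromosome 13) to -5.91 points (chromosome 19) over the 20 autosomes. The shift was thus spread over the genome, and its range between chromosomes narrowed once the deepest dyads were left out.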

How the data were processed

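RRBS libraries were made from MspI-digested DNA with fragments of 150 to 300 bases selected, per the labels' protocols. Bowtie and build rn5 are named, without version or role, per the submitters' processing notes; the sources used here do not give the caller, trimming or duplicate handling. Per cytosine, the authors deposited counts of methylated calls and of all calls, each with at least 10 calls, and a fraction that equals their ratio, which was only checked. Because duplicates are not described, error estimates cover counting only.

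Cytosines listed in all 4 files were joined by position, and dyads were summed over the strands so listed. Levels, spread and weights were computed with Python 3.11.15, numpy 2.4.6, scipy 1.17.1 and pandas 2.3.3. Density counted other dyads within 100 bases. The chi-square test was tested on simulated binomial counts for 266751 dyads. With 200 of them changed in 1 library, it recovered 4 of 71 at 20 points, 6 of 66 at 30 and 32 of 63 at 40, with 2 false calls among 44. These rates hold for that setting only. The adjustment depends on how many dyads differ, and the real counts spread more than binomial counting gives.

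Named tiles follow a rule: the 3 with the most dyads, the 3 densest at 80% or more in every library, the 3 of widest range, the 3 of largest part in the weighting shift of hypothalamus 2, and the 3 called dyads of widest range, with ties to the lower position. Members and rules were chosen with earlier results of these data known. No tissue was compared. Alternatives covered depth, strands, density window, weights and leaving out libraries.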

Additional observations from a re-analysis of the deposited data

Results flagged for a closer look

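In each group of 4 library values, the highest or lowest was compared with the others relative to the range of the 4. Of 51 groups, 2 passed the 95% limit, where chance gives about 1 in 20, here 2.55. At dyads with no neighbour, the unweighted CpG level minus the CC level by calls was 79.6% in hypothalamus 4 and 76.0% to 76.3% in the others. In the tile at 34900001 to 34901000 on chromosome 11, hypothalamus 4 stood at 76.9% and the others at 17.9% to 21.6%. That tile was chosen for its wide range between libraries, so its passing the limit and the share expected by chance say nothing about it.

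Methylated calls were also listed outside the autosomes. They were set against a count of 0, which any few calls exceed, so the values are given as a description only. Levels here are by calls over the positions each library lists itself, so the sets of positions differ between libraries. On chromosome X these were 27455, 32389, 14881 and 21458 CpG positions in hypothalamus 1 to 4. There the CpG level was 51.9%, 50.8%, 54.3% and 53.4% in hypothalamus 1 to 4, and the non-CG level was 1.60%, 0.674%, 0.884% and 1.69%. In the mitochondrial DNA, with 13 to 19 CpG positions listed, the CpG level was 1.46%, 0.312%, 0.561% and 1.63% and the non-CG level 1.21%, 0.244%, 0.359% and 1.58%.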

How the results depend on the processing

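No paired analysis was possible because the libraries form 1 group, so no replicate numbers are shared with another group; differences within a library are paired by construction. The fall in level from the sparsest to the densest class kept its direction in 14 of 14 alternatives, at 64.0 to 75.9 points, and the negative shift of hypothalamus 2 in 9 of 9. On 1000-base tiles that shift was -22.0 points, where a tile's calls grow with its number of dyads. With at least 20 calls in every library the unweighted level was 47.5% and the median SD 2.99 points. At dyads with both strands listed the level was 38.8% by calls and 40.2% unweighted. The median SD was 5.77 points after thinning to 10 calls, 8.33 points at levels of 20% to 80%, and 2.94 to 3.40 points without 1 library. Called dyads numbered 5012 at a range of 40 points, 708 after thinning and 4330 to 8561 without 1 library. Without hypothalamus 1, 2, 3 and 4 these were 2.48%, 1.62%, 3.02% and 2.10% of the dyads tested, beside 3.25% with all 4. Thinning made depth equal, but it also cut every dyad to 10 calls per library and left 167478 tested. The parts of these changes in the lower count cannot be told apart. Alternatives with 1 strand, with the CC level subtracted (unweighted level 49.9%), with middle levels only, and for the named tiles were chosen after seeing the data. Tiles of widest range gave no value at 20 calls per dyad.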

Other observations

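Dyads that fewer libraries listed were mostly shallower, with every strand a library lists added. In hypothalamus 4 the median was 13 calls both at dyads listed in 1 library and at those listed in 2. Of the dyads listed in any hypothalamus library, 766421 were listed in all 4, 311580 in 3, 144096 in 2 and 163100 in 1. Hypothalamus 2 listed 111518 of those found in a single library, with a median of 14 calls. Unweighted, dyads listed in 1 library had levels of 61.5%, 58.2%, 65.3% and 70.1% in hypothalamus 1 to 4, and those listed in 2 had 53.7%, 53.2%, 59.1% and 60.3%. Both sets were above the dyads listed in all 4 (50.7%, 49.7%, 50.05% and 52.1%) in each library. The dyads listed in 3 libraries had levels of 50.9%, 49.95%, 57.7% and 48.9% in hypothalamus 1 to 4, which is above the dyads listed in all 4 in hypothalamus 3 and below them in hypothalamus 4. In hypothalamus 1 and 2 these levels were close to those of the dyads listed in all 4.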
